A study of Mus musculus with 32 samples.

Results

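The cells compared here are fibroblasts of mouse embryos (MEFs, cells of connective tissue), immortalized and examined before any FGF was added. KO cells (Spry124-/-) had lost the genes Spry1, Spry2 and Spry4 by deletion, and WT cells (Spry124fl/fl) carried the same genes floxed but intact. All 8 arrays at 0 min were taken, 4 of KO and 4 of WT (replicates A to D of each), of 32 arrays in the series. The other 24 arrays hold both genotypes at 15, 60, 120 and 240 min after FGF, and served here to show the genotype difference again in RNA of other samples. These arrays also entered the normalization, the choice of probes and the estimate of spread behind the 0 min calls. Only the group means are separate, so calls at later times are not independent of those at 0 min. Both genotypes were immortalized and then starved of serum in DMEM with bovine serum albumin, penicillin and streptomycin. The sources used here do not give how the genes were deleted, or whether a genotype is 1 clone, 1 line or several, so deletion of Sprouty and any other difference between the lines cannot be told apart. The design text calls the replicates biological without naming separate cultures, so the p-values describe the spread of these samples, part of which may be technical.

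Sprouty proteins damp the signal that receptor tyrosine kinases, such as the FGF receptors, send through Ras to the kinase ERK. The pathway induces them, so that they act back on the signal that made them. ERK activity in fibroblasts drives immediate early transcription factors, growth factors that act back on the cell, and the production of ribosomes and of DNA replication proteins. In starved cells without added ligand the pathway runs at a low level, and this is the state described here.

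Each array carries 25697 probes, and KO arrays detected 11940 to 12332 of them above the negative controls, against 11319 to 11553 on WT arrays. Values below are log2 intensities after background correction and quantile normalization, a level per probe that does not compare one gene with another. Of 10 fibroblast markers on the array, 10 were detected on all 4 KO arrays and 8 on all 4 WT arrays, the platelet-derived growth factor receptor Pdgfrb and the collagen receptor Ddr2 being detected on 3 of 4 WT arrays. Their summed log2 level ran from 14.06 to 14.12 on KO and from 13.60 to 13.84 on WT arrays, with 4 markers called higher and the collagens Col3a1 (-0.74 ± 0.19) and Col1a2 (-0.46 ± 0.15) lower (log2 difference KO minus WT ± SE here and below). Of 7 endothelial markers 6 were detected on no KO array and 6 on no WT array, and of 4 leukocyte markers 4 and 2, with Ptprc and Itgam on none. Of 7 epithelial markers 4 and 5 were on no array, but the keratin Krt8 was detected on all 8 arrays and was lower in KO (-1.73 ± 0.12), while Cdh1, on 1 KO array and no WT array, was called higher (0.25). The summed level of the 4 epithelial markers tested ran from 6.84 to 6.91 on KO and from 7.49 to 7.85 on WT arrays. Sums over the markers tested were also lower in KO without overlap for the chondrocyte and osteoblast list and the neural and glial list. For 3 chondrocyte and osteoblast markers they ran from 7.57 to 7.74 on KO and from 8.31 to 8.55 on WT arrays. For 2 neural and glial markers they ran from 5.97 to 6.01 on KO and from 6.48 to 6.93 on WT arrays. Of 6 and 4 such markers on the array, only Sox9 (-1.01 ± 0.10) and Mbp (-0.99 ± 0.13) were called. Among 5 smooth muscle markers the actin Acta2 and the actin-binding Tagln were higher in KO (2.45 ± 0.08 and 0.79 ± 0.13), while Myh11 and Cnn1 were detected on no array. The summed level of the 3 smooth muscle markers tested ran from 14.15 to 14.39 on KO and from 11.75 to 12.01 on WT arrays. The part of these markers in the results below was not tested.

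The targeted genes could be read only in part. Spry1 and Spry2 were not detected on enough arrays to be tested. Spry4 had log2 intensities of 4.89, 4.78, 4.7 and 4.6 in KO and 5.37, 5.77, 5.49 and 5.16 in WT. All 4 KO arrays lay below all 4 WT arrays, and 1 of 4 KO and 4 of 4 WT arrays detected the gene (-0.71 ± 0.13, adjusted p = 6.72e-05). The sources used here do not say whether the probe falls inside the sequence that was removed, so the value checks the labels only in part. Spry3, the family member that was not deleted by design, had 4.48, 4.47, 4.38 and 4.37 in KO and 6.56, 6.13, 6.37 and 6.52 in WT. It was detected on no KO array and on all WT arrays, which made it at least 2.9-fold lower in KO (adjusted p = 2.48e-16). Vamp7, next to Spry3 on the X chromosome, was also lower (-0.47 ± 0.09), a neighbour chosen after its value was seen whose call was lost with the mean of its probes. The related inhibitor Spred1 was higher (0.34 ± 0.07), Spred2 had -0.06 ± 0.17 and was not called, and Spred3 was not tested.

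Of 10903 genes tested, 4995 (45.8%) were called at an adjusted p under 0.05 in limma's moderated test over all genes, of which 2416 were higher (22.2%) and 2579 were lower (23.7%) in KO. Most differences were small. A change past 2-fold was seen in 346 genes called higher and 194 called lower (3.17% and 1.78%), and the arrays of the 2 genotypes did not overlap for 4040 of the genes called, where 39.5% of all genes did not overlap. A share of called members near 45.8% in any group of genes below is therefore what all genes show. The share depended on detection. It was 57.5% of 7381 genes when detection on all 8 arrays was required, and 27.7% with no filter on detection. Groups of bright or dim genes were not compared with genes of like brightness, so a share above or below 45.8% may reflect detection in part. The balance of directions depended on the normalization: 48.4% of the calls were higher in KO, against 66.9% when arrays were scaled to the median of every probe and 38% when scaled to that of the detected ones.

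The same difference was then read in the 24 arrays taken after FGF. Of the 2416 genes called higher at 0 min, 73.4% were again called higher in KO at 15 min, 74.6% at 60 min, 73.2% at 120 min and 69.3% at 240 min. Of the 2579 called lower, 70.5%, 67.8%, 69.2% and 63.4% were again called lower at these times. Calls in the opposite direction numbered 2 at 15 min, 11 at 60 min, 26 at 120 min and 66 at 240 min. In all, 2356 of the 4995 genes (47.2%) were called the same way at all 4 later times. The share rose with size: it was 27% of 2762 genes whose log2 difference at 0 min was under 0.5, 64.8% of 1693 genes between 0.5 and 1, 94% of 417 genes between 1 and 2, and 99.2% of the genes over 2. Background called at these times was 39.9%, 42%, 43.8% and 43.9% of all genes.

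The direction of the difference went with the chromosome a gene lies on. On chromosome 12, 159 of 312 tested genes were called higher in KO and 16 lower, and on chromosome 9, 252 of 611 were higher and 48 lower. On chromosome 7 the counts were 57 higher and 310 lower of 784. On chromosome 10, 58% of 505 genes were called and 15% of these were higher, and on chromosome 18, 56.1% of 246 were called and 18.8% of these were higher. Chromosomes 13, 15 and 17 were near even, with 80 higher and 79 lower, 75 and 97, and 94 and 110. The median log2 difference of all genes tested was -0.02. It was 0.26 on chromosome 12, 0.17 on chromosome 9 and 0.15 on chromosome 3, and -0.27 on chromosome 10, -0.23 on chromosome 18, -0.18 on chromosome 7 and -0.14 on chromosome 4.

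The shift of a chromosome was alike in every array of a genotype. Taken against the mean of the WT arrays, the median over the genes of chromosome 12 ran from 0.253 to 0.304 on the 4 KO arrays and from -0.011 to 0.001 on the 4 WT arrays. On chromosome 10 it ran from -0.285 to -0.251 on KO and from -0.020 to 0.007 on WT arrays. For 19 of 20 chromosomes, the X included, the KO arrays did not overlap the WT arrays in this median, chromosome 15 being the exception. The medians were near the same in the arrays after FGF: chromosome 12 had 0.27, 0.28, 0.30 and 0.26 at 15, 60, 120 and 240 min, and chromosome 10 had -0.26, -0.22, -0.25 and -0.22. A median of 0.26 is a 1.2-fold rise, and 2762 of the 4995 genes called changed by under 0.5 on the log2 scale.

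**Figure D1:**
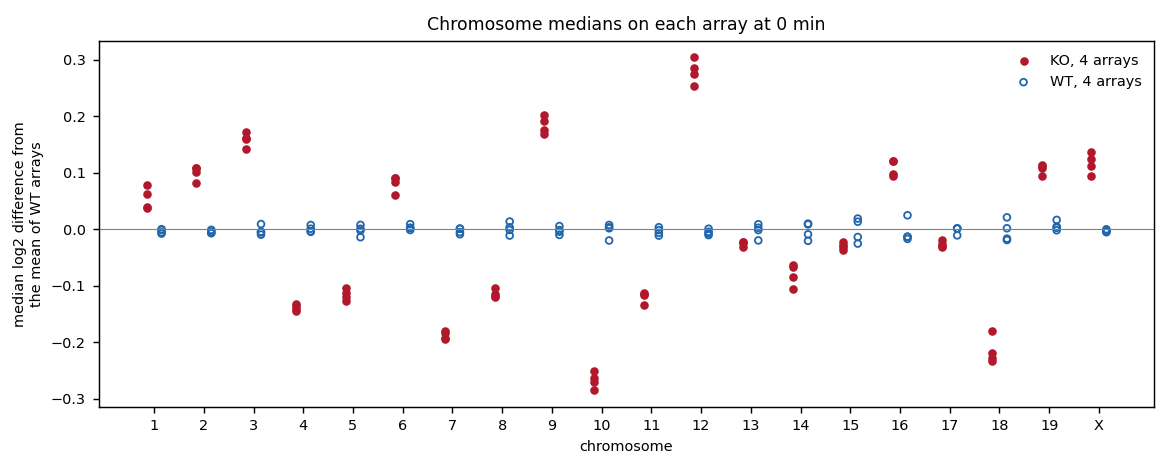
Median over a chromosome's tested genes of the log2 intensity minus the mean of the 4 WT arrays, 1 point per array at 0 min, KO left of WT within each chromosome. The 4 KO arrays lie from 0.253 to 0.304 on chromosome 12 and from -0.285 to -0.251 on chromosome 10, while WT arrays stay near 0.

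Along a chromosome the shift was broad and not even. The median over 51 neighbouring tested genes, taken in gene order, stayed above 0 along chromosome 12, between 0.07 and 0.47, and stayed below 0 along chromosome 10, between -0.40 and -0.11. It ran from -0.40 to -0.05 along chromosome 7, from -0.33 to -0.14 along chromosome 18, and from 0.0045 to 0.40 along chromosome 9. Chromosome 4 held both kinds of stretch, from -0.41 to 0.06. Genes of one stretch share their place on the chromosome and are not independent of each other. DNA copy number was not measured on these arrays, and its part in the pattern was not tested.

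**Figure D2:**
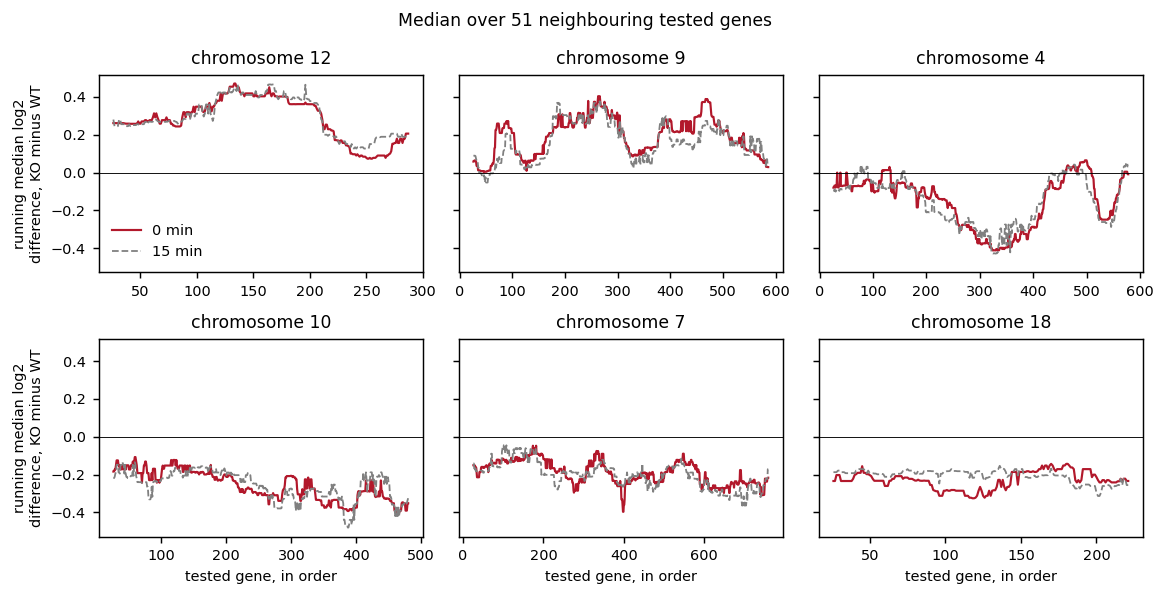
Running median over 51 neighbouring tested genes of the log2 difference KO minus WT, in gene order along 6 chromosomes (x axis, rank of the gene, no distance), at 0 min (solid, 4 arrays per genotype) and 15 min (dashed, 3 other arrays per genotype). The lines of both times follow each other, above 0 on chromosomes 12 and 9 and mostly or wholly below 0 on chromosomes 10, 7, 18 and 4.

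To see which calls stand apart from their chromosome, each array was also shifted, chromosome by chromosome, by the median deviation of the chromosome's genes, a setting chosen after the pattern was seen. It called 4682 genes (42.9%), 2369 higher and 2313 lower in KO. Of the 4995 calls, 3852 (77.1%) were the same, 1143 were lost, 0 turned to the opposite direction, and 830 other genes were called. All 540 genes past 2-fold kept their call, as did 96.7% of those between 0.5 and 1 and 60.6% of those under 0.5 on the log2 scale. Counts of gene groups below are given with this setting where it moves a count of 5 or more by over 1.5 times.

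Within chromosome 7 one short stretch fell much further. It surrounds Igf2, an embryonic growth factor expressed from 1 parental copy, in a domain where several neighbours are imprinted too. Igf2 had log2 intensities of 9.09, 9.32, 9.41 and 9.04 in KO and 13.32, 13.37, 13.23 and 13.37 in WT. All KO arrays lay far below all WT arrays. Next to it, the mitochondrial ribosomal protein gene Mrpl23 had 7.55, 7.51, 7.71 and 7.62 in KO and 9.94, 9.83, 10.08 and 9.95 in WT (-2.35 ± 0.08). The leukocyte-specific protein gene Lsp1 (-0.86 ± 0.07) and the fast troponin Tnni2 (-1.58 ± 0.18) fell on that side as well, while the protease gene Ctsd beyond them was not called (0.03 ± 0.15).

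On the other side of Igf2, the tetraspanin Cd81 (-0.57 ± 0.07), Tssc4 (-0.68 ± 0.13), the transporter Slc22a18 (-0.74 ± 0.15), Phlda2 (-1.28 ± 0.10) and Nap1l4 (-0.63 ± 0.06) were lower in KO. Within this run, the potassium channel Kcnq1 was detected on no array at 0 min and was not called (-0.04 ± 0.10), and the imprinted inhibitor of cyclin-dependent kinases Cdkn1c moved the other way. Cdkn1c was detected on no WT array and was at least 1.74-fold higher in KO (adjusted p = 1.19e-09). All the genes of this stretch that were called kept their call when chromosomes were centred. The neighbours were picked by place and named after their values were seen.

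Imprinted genes elsewhere moved strongly too. Of 19 tested, Igf2 and its imprinted neighbours included, 7 were called higher and 8 lower in KO, and 4 of the rises and 4 of the falls passed 2-fold. Dlk1, a membrane ligand related to Notch ligands, was detected on no WT array and was at least 20.6-fold higher in KO. Ndn, which encodes the growth suppressor necdin, had 8.75, 8.75, 8.76 and 8.55 in KO and 4.47, 4.54, 4.51 and 4.46 in WT, at least 13.4-fold higher. Mest, a hydrolase-like protein expressed from the paternal copy, had 9.66, 9.69, 9.64 and 9.26 in KO and 6.33, 6.62, 6.52 and 6.54 in WT (3.06 ± 0.13). In each of these genes all KO arrays lay above all WT arrays. Peg10, of retrotransposon origin, was lower (-1.64 ± 0.16), and the receptor Igf2r had 0.02 ± 0.13 and was not called.

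The core of the pathway that Sprouty acts on moved both ways, by less than 2-fold. Of 21 tested genes of the Ras-ERK cassette and its adaptors, 5 were called higher and 3 lower in KO (38.1% called, below the 45.8% of all genes), with a median of 0.10 and none past 2-fold. The adaptor Shc1 (0.95 ± 0.06) and the small GTPase Rras (0.66 ± 0.07) rose, and the Ras-inactivating Rasa1 fell (-0.79 ± 0.09). The kinase Map2k2 was called lower (-0.46 ± 0.08) but lies on chromosome 10 and lost its call with chromosomes centred. The phosphatase Ptpn11 had -0.02 ± 0.07 and Nras 0.00 ± 0.06, neither called, though Nras was called lower with chromosomes centred.

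Dual-specificity phosphatases, of which only some act on ERK, moved both ways. Of 18 dual-specificity phosphatases tested, 4 were higher and 5 lower in KO. Dusp6, which acts on ERK in the cytoplasm and is a feedback target of it, had 10.03, 10.14, 10.02 and 9.95 in KO and 10.66, 10.72, 10.65 and 10.52 in WT. Its arrays did not overlap, all KO arrays being the lower (-0.60 ± 0.08, adjusted p = 3.86e-07). Dusp4, a nuclear phosphatase of ERK, was detected on no WT array and was at least 1.49-fold higher in KO. Dusp1 had -0.20 ± 0.10 and was not called. Among 27 Ets and Kruppel-like factors 4 rose and 5 fell (7 and 7 with chromosomes centred), the ERK-responsive Etv4 falling (-0.81 ± 0.14) on the log2 scale and Ets1 and Ets2 rising (0.51 ± 0.12 and 0.50 ± 0.09). Of 37 immediate early genes 12 were higher, among them the AP-1 member Fosl1 (1.03 ± 0.13), and 11 lower, among them Egr2 (-1.06 ± 0.13) and Hbegf, an EGF receptor ligand (-1.56 ± 0.09).

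Among secreted growth factors, a mixed group of ligands leaned to KO. It held PDGF, VEGF, HGF, angiopoietin and neurotrophin types and others, such as Gas6 and Csf1. Of 24 tested, 15 were higher and 3 lower (75% called, median 0.50). Gas6, which activates the receptors Axl and Mertk, was detected on no WT array and was at least 10.9-fold higher in KO. Axl and Mertk were higher as well (0.39 ± 0.11 and 0.89 ± 0.13). Csf1, the growth factor of macrophages, had 10.31, 10.06, 10.01 and 10.32 in KO and 7.65, 7.56, 7.53 and 7.59 in WT (2.59 ± 0.12). The lymphatic growth factors Vegfc (1.96 ± 0.15) and Vegfd (2.0 ± 0.11) rose. The largest fall of the group was that of Angptl7 (-7.11 ± 0.11). Angpt2 fell too (-0.37 ± 0.09), a call lost when scaled to the median of every probe. In each of Csf1, Vegfc and Vegfd the lowest KO array lay above the highest WT array.

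FGF ligands moved both ways, and more IGF genes fell than rose. Of 13 FGF ligands and carriers, 3 were called higher and 4 lower, and the metabolic hormone Fgf21 fell (-0.97 ± 0.16) on the log2 scale, beside the larger falls of Fgf5 (at least 15.1-fold, on no KO array) and the FGF carrier Fgfbp1 (-3.6 ± 0.14). Of 12 genes for IGF ligands, receptors and binding proteins, 2 were higher and 6 lower. The receptor Igf1r fell (-0.96 ± 0.18), as did the binding protein Igfbp6 (-0.86 ± 0.09), and Igfbp4 rose (0.59 ± 0.10). Of 22 receptor tyrosine kinases 5 rose and 3 fell, led by Pdgfrb, with 6.88, 6.92, 6.75 and 6.61 in KO and 5.38, 4.41, 4.97 and 5.02 in WT (1.85 ± 0.19), and by the VEGF receptor Flt1 in the other direction (-1.14 ± 0.13). Pdgfra and Egfr were not called (-0.08 ± 0.10 and 0.22 ± 0.11), though Egfr was called higher with chromosomes centred.

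Several extracellular members of the BMP pathway rose. Of 24 ligands and antagonists of the TGF-beta, activin and BMP class 11 rose and 4 fell, 3 of the rises and 1 of the falls past 2-fold. The ligand Bmp4 had 7.58, 7.9, 7.95 and 7.43 in KO and 5.49, 6.0, 5.83 and 5.6 in WT (1.99 ± 0.14). Extracellular regulators rose too, the BMP-binding Bmper by 2.46, the activin antagonist Fst by 2.27 and the BMP antagonist Grem1 by 0.79 on the log2 scale. All 4 KO arrays lay above all WT arrays for each. Of 22 receptors, Smads and Id genes 5 rose and 5 fell (3 rose with chromosomes centred). When scaled to the median of the detected probes 3 rose and 9 fell. Among the rises were the receptors Eng and Tgfbr2, Smad3 and Id1. The falls held the type I receptor Bmpr1a (-0.65 ± 0.08), the shared Smad4 (-0.39 ± 0.07) and the BMP target Id3 (-0.82 ± 0.15).

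Wnt genes moved both ways, and the Notch genes that were called were higher. Of 10 Wnt ligands and secretion genes (70% called) 3 were higher, such as Wnt10a (at least 2.58-fold) and the carrier Wls (0.71 ± 0.07), and 4 were lower, such as Wnt5a (-0.52 ± 0.08) and Wnt7b (-4.81 ± 0.08). Of 14 Wnt receptors 2 rose and 2 fell, of 8 antagonists 2 and 2, Dkk3 falling at least 3.68-fold, and of 20 beta-catenin cofactors and targets 3 and 4. Of 16 Notch pathway genes 6 were higher and 0 lower (37.5% called), and 7 higher and 1 lower with chromosomes centred. Notch1 had 6.58, 6.61, 6.5 and 6.74 in KO and 5.66, 5.25, 4.71 and 5.63 in WT (1.29 ± 0.18), the target Hes1 rose by 1.41, and Notch3 by 0.65. Notch1 arrays did not overlap between genotypes, KO being the higher.

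Among matrix genes, collagens moved both ways and small proteoglycans held large falls. Of 21 tested collagens 5 rose and 5 fell, with 47.6% called, near the share of all genes. Col1a1 had -0.09 ± 0.14, Col4a1 0.02 ± 0.14 and Col4a2 -0.10 ± 0.15, none called, while the fibrillar Col1a2 and Col3a1 fell, as given above, Col1a2 losing its call without WT replicate D. Col6a1 and Col6a2, 2 chains of the beaded filament collagen VI on chromosome 10, were lower (-0.80 ± 0.11 and -1.04 ± 0.15), and Col18a1, of basement membranes, on the same chromosome, was higher (1.01 ± 0.09).

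Of 21 proteoglycan and hyaluronan genes 6 rose and 8 fell, 6 of the falls past 2-fold. Decorin, a collagen-binding proteoglycan encoded by Dcn, had 10.12, 10.14, 10.12 and 10.09 in KO and 13.51, 13.45, 13.47 and 13.48 in WT (-3.36 ± 0.07, adjusted p = 2.05e-24). Its neighbour Lum, for lumican, was detected on no KO array and on all WT arrays, at least 1.88-fold lower. Osteoglycin, Ogn, had 10.11, 10.61, 10.51 and 10.22 in KO and 12.48, 12.27, 12.27 and 12.45 in WT, and its neighbour Omd, for osteomodulin, had 5.87, 6.04, 5.86 and 6.07 in KO and 7.86, 7.88, 8.23 and 8.13 in WT (-2.0 ± 0.11 and -2.06 ± 0.11). All 4 KO arrays lay below all 4 WT arrays for each of these genes. A relative of theirs, Prelp, went the other way, at least 7.88-fold higher in KO and on no WT array, and biglycan, Bgn, rose by 0.65 on the log2 scale.

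Enzymes that finish or cut the matrix were higher in KO more often than lower. Of 19 collagen processing and crosslinking genes 10 rose and 2 fell (median 0.37), with the transglutaminase Tgm2 (2.08 ± 0.12), Pcolce2, an enhancer of procollagen processing (1.3 ± 0.13), and the lysyl hydroxylase Plod2 (0.87 ± 0.10) among the rises and the prolyl hydroxylase P3h2 (-1.31 ± 0.10) among the falls. Of 40 metalloproteinases and inhibitors 14 rose and 3 fell (42.5% called), against 13 and 7 when scaled to the median of the detected probes. Of the rises 9 passed 2-fold. Mmp3, which cuts proteoglycans and activates other proteases, had 9.36, 9.14, 9.08 and 9.54 in KO and 5.12, 5.06, 5.63 and 4.97 in WT (4.08 ± 0.14). In the same cluster on chromosome 9 Mmp10 rose (1.12 ± 0.15), Mmp13 rose slightly (0.36 ± 0.12) and lost its call with chromosomes centred, and Mmp1a was not called (-0.08 ± 0.14), the 3 neighbours having been picked by place.

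Lysosomal genes leaned the same way. Of 31 cathepsins and lysosomal hydrolases 17 rose and 3 fell (median 0.21). Ctsk, a collagen-degrading cathepsin, was detected on no WT array and was at least 11.1-fold higher, and the beta-galactosidase gene Glb1 had 10.12, 10.09, 10.22 and 10.05 in KO and 9.24, 9.19, 8.99 and 9.22 in WT (0.96 ± 0.08). Ctsf (1.26 ± 0.17) and the cholesterol-binding Npc2 (0.90 ± 0.09) rose, while Ctsz (-1.41 ± 0.12) and Ctsl (-0.61 ± 0.12) fell. Among 15 integrins 7 rose and 3 fell (median 0.39). The collagen receptor Itga11 was on no WT array and at least 11.8-fold higher in KO, Itga5, of the fibronectin receptor, rose by 0.81, and Itga7, a laminin receptor, fell (-0.90 ± 0.11) on the log2 scale. Of 31 basement membrane and adhesive glycoproteins 12 rose, led by Thbs2 (3.3 ± 0.12), and 6 fell, led by the microfibril protein Mfap4 (-1.47 ± 0.13).

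**Figure D3:**
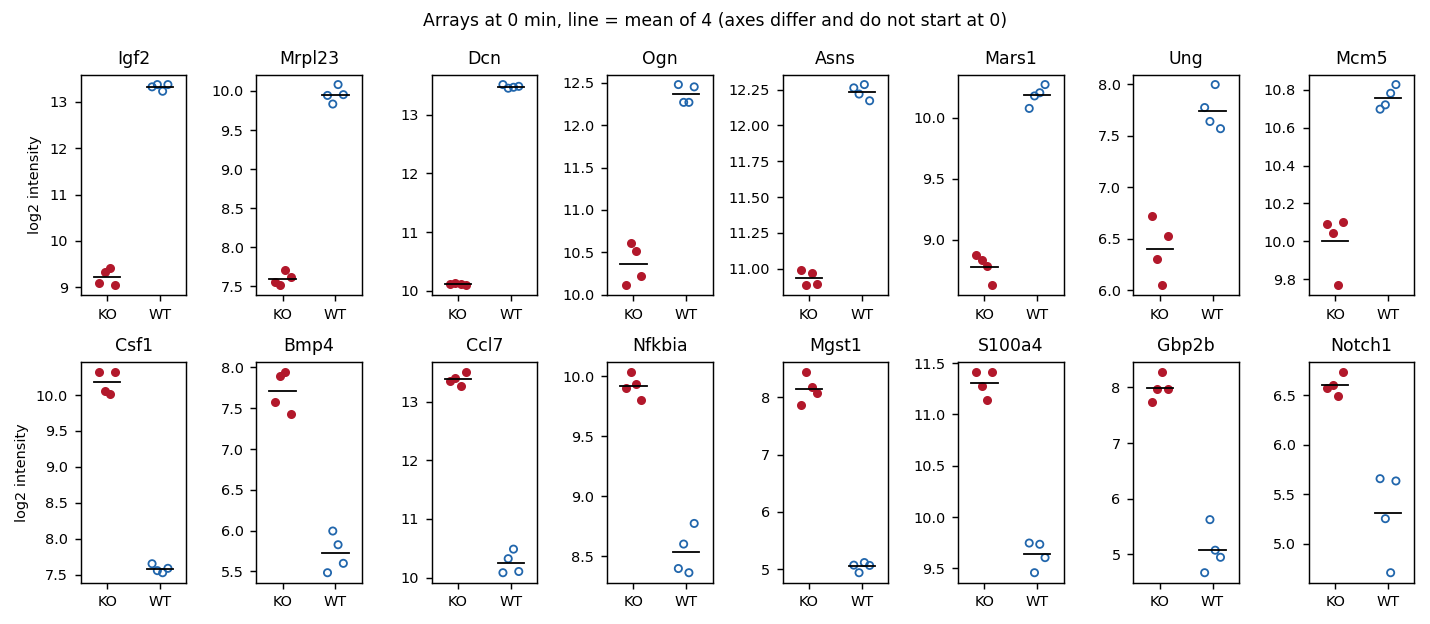
Log2 intensity (y axis) of 16 genes on the 4 KO arrays (left, filled) and 4 WT arrays (right, open) at 0 min, with the mean of each genotype as a line. The genotypes do not overlap in any panel, and Igf2, Mrpl23, Dcn, Ogn, Asns, Mars1, Ung and Mcm5 are lower in KO and the other 8 genes higher.

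Many genes of inflammation were higher in KO. Of 18 chemokines and receptors 10 were higher and 4 lower in KO (77.8% called), 7 and 3 past 2-fold. Over all alternatives, some of which tested fewer genes, 5 to 11 were higher and 3 to 7 lower. Ccl7, a monocyte attractant, had 13.36, 13.4, 13.27 and 13.51 in KO and 10.08, 10.32, 10.48 and 10.1 in WT (3.14 ± 0.12). Its neighbours on chromosome 11, Ccl2 (1.6 ± 0.11), Ccl8 (1.06 ± 0.19) and Ccl11 (0.45 ± 0.13), rose too, inside a stretch whose flanking genes, picked like the last 2 by place, Tmem98 (-0.81 ± 0.08) and Cct6b (at least 1.23-fold) were lower. Cxcl16 was at least 6.93-fold higher and on no WT array. The membrane-bound Cx3cl1 had 5.63, 5.88, 5.73 and 5.61 in KO and 8.79, 8.83, 8.64 and 8.67 in WT (-3.02 ± 0.09), and the interferon-induced Cxcl10 also fell (-1.21 ± 0.16).

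Genes around NF-kappaB, a transcription factor of innate defence, rose more often than they fell, its inhibitors among them. Of 26 genes of NF-kappaB subunits, kinases and inhibitors 13 rose and 2 fell (median 0.28). The inhibitor Nfkbia had 9.9, 10.04, 9.94 and 9.8 in KO and 8.4, 8.6, 8.36 and 8.77 in WT (1.39 ± 0.08), and the nuclear cofactor Nfkbiz rose by 1.61, the kinase Ikbke by 1.1, the inhibitor Nfkbie by 0.71 and the deubiquitinase Tnfaip3 by 0.60 on the log2 scale. Nfkbia arrays did not overlap, all KO arrays being the higher. Of 21 Toll-like receptors and cytosolic sensors 11 rose and 2 fell (median 0.35), among them Tlr2 (1.39 ± 0.10), the intracellular sensor Nod1 (1.51 ± 0.12) and the adaptor Myd88 (0.86 ± 0.07), while Tlr4 had 0.20 ± 0.17 and was not called.

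Of 45 interleukins, their receptors and cytokines of the gp130 class 16 were higher and 6 lower, against 16 and 1 when scaled to the median of every probe. Over all alternatives, some of which tested fewer genes, 6 to 19 were higher and 1 to 7 lower. The rises were led by Il18 (2.18 ± 0.12), the oncostatin M receptor Osmr (1.58 ± 0.09) and Il7 (1.5 ± 0.11). Of 19 TNF ligands and receptors 4 rose and 3 fell. The death receptor Fas lay between 9.99 and 10.06 on the 4 KO arrays and had 7.29, 7.6, 7.65 and 7.02 in WT (2.63 ± 0.13), and Tnfrsf1a, the main TNF receptor, rose (1.14 ± 0.15). Tnfrsf11b, a soluble decoy receptor that restrains bone resorption, had 4.86, 5.03, 4.64 and 4.77 in KO and 6.55, 7.12, 7.03 and 6.62 in WT (-2.0 ± 0.13). For Fas the KO arrays, and for Tnfrsf11b the WT arrays, were all the higher.

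Interferon targets did not move as a block. Of 34 tested 11 rose and 8 fell (median 0.08), against 14 and 3 when scaled to the median of every probe. The guanylate-binding proteins, encoded side by side on chromosome 3, rose together: Gbp2b had 7.75, 7.98, 8.28 and 7.98 in KO and 4.67, 5.62, 5.08 and 4.95 in WT, and Gbp2 and Gbp3 rose by 2.37 and 1.14 on the log2 scale. Isg15, a ubiquitin-like antiviral protein, and Ifit3, an RNA-binding one, were lower (-0.97 ± 0.16 and -1.46 ± 0.09). Of 26 genes of MHC and antigen processing 14 rose and 2 fell (median 0.35), such as the immunoproteasome subunit Psmb9 (1.4 ± 0.14) and the peptide transporter Tap2 (1.11 ± 0.12) among the rises and the class II chaperone gene H2-DMb1 (-1.41 ± 0.10) among the falls. Of 15 complement genes and pentraxins 7 rose, among them the complement inhibitor Cd59a by 2.62, and 2 fell. Over all alternatives, some of which tested fewer genes, 2 to 7 of them rose and 0 to 4 fell.

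Promoters of the genes in these groups were searched for short motifs in RefSeq's sequence table (GRCm38.p6), from 250 bases before to 50 after each gene's start, on both strands. The AP-1 motif TGANTCA was found in 5 of 12 promoters of NF-kappaB genes called higher (41.7%), in 5 of 13 of the interleukin group (38.5%) and in 3 of 10 of the metalloproteinases (30%). These groups were picked among 35 searched, whose genes called higher had shares from 0% to 41.7%, with a median of 10%. It was found in 7.16% of the promoters of all genes tested and in 8.97% of all promoters of the table. The NF-kappaB motif was in 2 of those 12 NF-kappaB genes, against 1.73% of genes tested. Over all genes called higher the AP-1 share was 7.06%, and over all tested members of the groups, called or not, it was 21.7% of 23, 26.5% of 34 and 24% of 25. A match is a description of letters and shows no binding. Stretches of 80 bases around the match, with the AP-1 letters in capitals, show the match in 3 genes named above.
Mmp3 (chr9:7445739-7445818, plus strand): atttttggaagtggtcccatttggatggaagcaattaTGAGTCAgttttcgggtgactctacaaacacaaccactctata
Tnfaip3 (chr10:19015504-19015583, minus strand): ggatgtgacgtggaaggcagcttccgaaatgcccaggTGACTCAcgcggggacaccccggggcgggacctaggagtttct
Nfkbie (chr17:45555507-45555586, plus strand): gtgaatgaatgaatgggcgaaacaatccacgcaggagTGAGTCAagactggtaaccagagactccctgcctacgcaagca

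Many genes that make the protein synthesis machinery were lower in KO. Of 54 ribosome biogenesis factors 2 were called higher and 34 lower (66.7% called, median -0.35). The falls were moderate and none passed 2-fold. Noc4l, which acts in assembly of the small ribosomal subunit, had 8.32, 8.35, 8.28 and 8.28 in KO and 9.28, 9.26, 9.29 and 9.36 in WT, and Pes1, of the large subunit's maturation, had 9.99, 9.85, 9.79 and 10.15 in KO and 10.93, 10.84, 10.88 and 10.85 in WT (-0.99 ± 0.07 and -0.93 ± 0.07). No KO array reached the lowest WT array in either gene. The ribosomal proteins themselves moved both ways: of 59 cytosolic ones 12 rose and 7 fell (32.2% called, median 0.01), but 7 rose and 10 fell when scaled to the median of the detected probes. With chromosomes centred 13 rose and 1 fell. Of 71 mitochondrial ribosomal proteins 8 rose and 28 fell (median -0.16), against 11 and 14 when scaled to the median of every probe, Mrpl37 falling (-0.71 ± 0.07) and Mrps15 (-0.60 ± 0.13) on the log2 scale, and Mrpl24, on chromosome 3, rising by 0.98.

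Most enzymes that charge tRNAs were lower in KO. Of 19 aminoacyl-tRNA synthetase genes tested, 15 were called lower and 1 higher (84.2% called, median -0.38), against 11 and 1 when scaled to the median of every probe. Mars1, the methionine enzyme, had 8.88, 8.84, 8.79 and 8.63 in KO and 10.07, 10.18, 10.2 and 10.27 in WT (-1.4 ± 0.08, adjusted p = 1.01e-14). The leucine enzyme Lars had -0.86 ± 0.10, the alanine enzyme Aars -0.69 ± 0.08 and the threonine enzyme Tars -0.60 ± 0.10, with all KO arrays below all WT arrays in each. Lars lies near Spry4 and had -0.66, still called lower, with chromosomes centred. With that shift 15 members of the group were lower and 0 higher. The 1 gene called higher without the shift was Qars, the glutamine enzyme (0.30 ± 0.07), on chromosome 9, and it lost that call with chromosomes centred. Of 49 translation initiation and elongation factors 7 rose and 25 fell (median -0.20), against 8 and 12 when scaled to the median of every probe, with Eif3c (-0.82 ± 0.11) and the inhibitory elongation kinase Eef2k (-0.58 ± 0.12) among the falls. Eif4e3, a cap-binding variant, rose by 2.11 on the log2 scale.

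Many of the synthetases are also targets of ATF4, a transcription factor that raises amino acid supply under stress. Of 29 genes of the ATF4 pathway and amino acid synthesis 3 rose and 16 fell (median -0.55), 5 of the falls past 2-fold. With chromosomes centred 3 rose and 15 fell. Slc6a9, a glycine transporter, had 7.11, 7.21, 7.27 and 7.11 in KO and 9.18, 9.36, 9.09 and 9.09 in WT (-2.0 ± 0.08). Asns, asparagine synthetase, had 10.99, 10.88, 10.97 and 10.9 in KO and 12.26, 12.22, 12.29 and 12.17 in WT (-1.3 ± 0.06). Shmt2, of mitochondrial serine use (-1.54 ± 0.09), the stress factor Ddit3 (-1.34 ± 0.09) and the leucine transporter Slc7a5 (-1.07 ± 0.10) fell as well. Atf4 itself had 0.07 ± 0.09 and was not called, nor was Phgdh, the entry to serine synthesis (0.00 ± 0.09). Of 25 genes of the PI3K, AKT and mTOR pathway 2 rose and 8 fell, against 4 and 5 when scaled to the median of every probe. The mTOR inhibitor Ddit4l, on no WT array, rose at least 11-fold, while the related Ddit4 and Eif4ebp1 were called lower. The kinase Mtor fell (-0.75 ± 0.16, and -0.61 with chromosomes centred) on the log2 scale. Mtor lies in a stretch around Angptl7 where neighbours, picked by place, were lower too, such as Exosc10 (-0.94 ± 0.11) and Srm (-1.02 ± 0.09). Further neighbours there were called lower as well, among them Kif1b and the peptide gene Nppb (-2.01 ± 0.15). Some of the neighbours looked at were not called, and none was called higher.

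The ATF4 response element TGATGNAA was in 7 of the 15 promoters at hand for the 16 genes called lower in the ATF4 group (46.7%) and in 5 of the 10 at hand for the 15 synthetases called lower (50%), the groups picked among 29 searched with shares from 0% to 50%. It was in 3.04% of the promoters of all genes tested, in 3.35% of those of all genes called lower and in 4.51% of all promoters of the table. Over all tested members of the groups, called or not, the shares were 37% of 27 and 41.7% of 12, and the groups are made of known ATF4 targets in part. Windows of 80 bases show the element, on either strand, in capitals.
Asns (chr6:7693189-7693268, minus strand): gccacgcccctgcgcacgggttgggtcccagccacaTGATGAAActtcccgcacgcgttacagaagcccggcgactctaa
Aars (chr8:111033694-111033773, plus strand): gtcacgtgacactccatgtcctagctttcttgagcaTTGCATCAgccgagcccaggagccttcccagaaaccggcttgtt
Tars (chr15:11399630-11399709, minus strand): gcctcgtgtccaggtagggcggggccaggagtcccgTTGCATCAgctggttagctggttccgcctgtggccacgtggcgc
Fgf21 (chr7:45615586-45615665, minus strand): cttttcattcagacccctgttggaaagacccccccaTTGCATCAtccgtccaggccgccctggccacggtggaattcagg
Fgf21 stands in both the ATF4 and the FGF groups, and Aars carries 1 more match outside its window.

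Many protein folding genes fell. Of 21 ER chaperones and genes of the unfolded protein response 4 rose and 10 fell (median -0.22), but 4 rose and 4 fell when scaled to the median of every probe. The chaperones Hsp90b1 (-0.71 ± 0.08), Calr (-0.68 ± 0.15) and Hspa5 (-0.57 ± 0.15) were lower. Of 32 heat shock proteins and chaperonins 4 rose and 14 fell (median -0.20), against 5 and 8 when scaled to the median of every probe. The falls held the chaperonin subunits Cct2 (-0.73 ± 0.17) and Cct6a (-0.45 ± 0.07) and the mitochondrial Hspa9 (-0.62 ± 0.09), and the rises the small heat shock proteins Hspb1 (1.16 ± 0.13) and Hspb6 (1.62 ± 0.10). Of 32 nucleoporins and importins 1 rose and 17 fell (median -0.31), Nup210 with 4.7, 5.02, 4.93 and 4.86 in KO and 6.7, 6.62, 6.7 and 6.76 in WT (-1.82 ± 0.10). Nup210 arrays of KO all lay below those of WT. Of 34 proteasome subunits 11 rose and 8 fell, but 5 rose and 7 fell with chromosomes centred and 5 rose and 9 fell when scaled to the median of the detected probes. Of 75 respiratory chain and ATP synthase subunits 20 rose and 12 fell, against 11 and 7 with chromosomes centred, but 7 rose and 15 fell when scaled to the median of the detected probes.

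Most of the DNA replication genes that were called were lower, and mitosis genes moved both ways. Of 47 G1/S and replication genes 2 rose and 26 fell (59.6% called, median -0.28). Ung, which removes uracil from DNA, had 6.72, 6.3, 6.05 and 6.52 in KO and 7.77, 7.64, 8.0 and 7.57 in WT (-1.35 ± 0.13). The helicase subunits Mcm5 (-0.76 ± 0.10), Mcm6 (-0.75 ± 0.11) and Mcm7 (-0.76 ± 0.11) and the polymerase subunit Pold1 (-0.78 ± 0.11) fell. Mcm5 had 10.09, 10.04, 9.77 and 10.1 in KO and 10.7, 10.72, 10.78 and 10.83 in WT, without overlap. The 2 rises were Rrm2, of nucleotide supply, on chromosome 12 (0.86 ± 0.12), and the transcription factor E2f1. Of 34 G2/M and mitosis genes 7 rose and 7 fell (median 0.00), but 10 rose and 3 fell when scaled to the median of every probe and 5 rose and 8 fell when scaled to that of the detected ones. Among them Cdk1 stood at -0.20 ± 0.11 and Birc5 at 0.16 ± 0.09, neither called, though Birc5 was called higher with chromosomes centred. Whether the 2 lists differ was not tested. Of 28 cyclins, CDKs, their inhibitors and E2f and Myc genes 11 rose and 4 fell. The inhibitor Cdkn2b (1.07 ± 0.07), E2f5 and E2f6 rose, and the inhibitor Cdkn1b and the kinase Cdk2 fell (-0.80 ± 0.15 and -0.66 ± 0.07). Ccnd1 was not called (0.12 ± 0.09) but was called higher with chromosomes centred.

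The E2F motifs TTTCCCGC and TTTGGCGC, on either strand, were in 7 of the 22 promoters at hand for the 26 replication genes called lower (31.8%) and in 29.3% of 41 tested members with a promoter. They were in 3.02% of genes tested, 3.67% of all genes called lower and 1.8% of all promoters. The group was picked among 29 searched, whose genes called lower had shares from 0% to 31.8%, with a median of 0%. The windows below, 80 bases each, hold the motif in capitals.
Mcm5 (chr8:75109324-75109403, plus strand): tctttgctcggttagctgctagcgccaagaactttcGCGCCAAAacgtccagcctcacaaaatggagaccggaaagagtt
Mcm6 (chr1:128359772-128359851, minus strand): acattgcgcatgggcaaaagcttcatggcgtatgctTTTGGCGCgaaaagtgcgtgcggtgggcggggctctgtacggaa
Mcm7 (chr5:138172005-138172084, minus strand): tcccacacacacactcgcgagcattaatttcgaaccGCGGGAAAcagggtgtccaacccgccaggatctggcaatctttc
Pold1 (chr7:44548766-44548845, minus strand): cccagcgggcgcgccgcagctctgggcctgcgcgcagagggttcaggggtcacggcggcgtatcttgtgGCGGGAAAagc
Mcm6 has 1 more match outside its window.

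Histone genes moved both ways. Of 46 tested 17 rose and 11 fell, 6 of the rises past 2-fold and none of the falls, and 19 rose and 2 fell when scaled to the median of every probe. The linker histones H1f10 (1.57 ± 0.16) and H1f2 (1.26 ± 0.16) and the core histones H4c6 (1.34 ± 0.16) and H2bc4 (1.24 ± 0.10) rose. The H2A genes H2ac7 (-0.45 ± 0.09) and H2ac12 (-0.41 ± 0.11) fell. Clustered histone genes are near-identical copies, and a probe may read several of them. Of 85 Polycomb, DNA methylation and chromatin genes 12 rose and 30 fell (median -0.09), against 16 and 19 when scaled to the median of every probe, among the falls the methyltransferase Ezh2 (-0.71 ± 0.12), the heterochromatin protein Cbx5 (-0.83 ± 0.09) and the deacetylases Sirt1 (-0.77 ± 0.07) and Sirt6 (-0.86 ± 0.17). The nuclear lamins Lmnb1 (-1.0 ± 0.14) and Lmnb2 (-0.98 ± 0.10) fell as well.

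**Figure D4:**
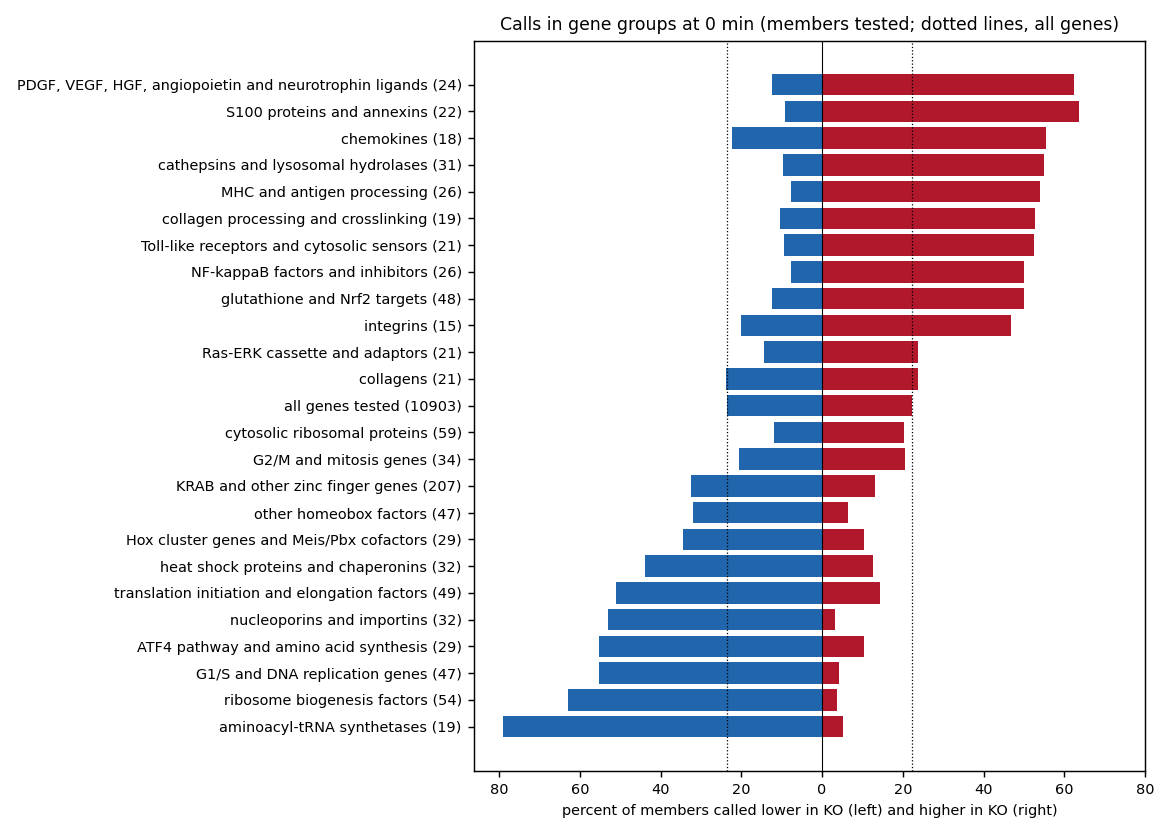
Percent of the tested members of 24 gene groups called higher (right of 0) and lower (left of 0) in KO, with the counts of members tested, beside all 10903 genes. Aminoacyl-tRNA synthetases have 15 of 19 members lower and 1 higher. The mixed group of growth factor ligands (PDGF, VEGF and other types) has 15 of 24 higher and 3 lower. Over all genes 22.2% are higher and 23.7% lower.

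Many detoxifying enzymes were higher in KO. Of 48 genes of glutathione use and of the antioxidant factor Nrf2 24 rose and 6 fell (median 0.27). Mgst1, a microsomal glutathione transferase, had 7.87, 8.44, 8.17 and 8.07 in KO and 5.07, 4.94, 5.12 and 5.07 in WT (3.08 ± 0.15), all KO arrays being the higher. Gsta4 (1.49 ± 0.11) and the superoxide dismutases Sod2 (0.99 ± 0.07) and Sod3 (1.57 ± 0.13) rose, while Hmox1, induced by heme and oxidants, was not called (0.10 ± 0.23). Of 58 cytochromes P450, aldehyde and alcohol dehydrogenases and aldo-keto reductases 24 rose and 7 fell, 12 of the rises past 2-fold, against 20 and 13 when scaled to the median of the detected probes. Cyp1b1 rose by 1.89 and the esterase Ces2g by 1.83, and Akr1c12 fell (-2.35 ± 0.11) on the log2 scale. Retinoid genes moved both ways, 6 up and 4 down of 19, with the retinaldehyde dehydrogenase Aldh1a1 at least 1.81-fold higher and the retinol dehydrogenase Rdh10 lower (-1.07 ± 0.13).

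Of 175 solute carriers 46 rose and 37 fell, in number near all genes (47.4% called), but 42 rose and 44 fell when scaled to the median of the detected probes and 53 rose and 22 fell when scaled to that of every probe. The urea transporter Slc14a1 was on no KO array and at least 3.42-fold lower, and the folate carrier Slc19a1 fell (-0.91 ± 0.09) on the log2 scale. Among 27 lipid storage genes and PPAR targets 9 rose and 6 fell, against 9 and 2 when scaled to the median of every probe. The fat-cell regulator Pparg rose by 1.32 and the phosphatase Lpin1 by 1.81, while 4 of 5 adipocyte markers were detected on no array of either genotype. The hormone gene Lep, on 2 of 4 KO and 4 of 4 WT arrays, was lower (-0.49 ± 0.15), a call lost without KO replicate B. Of 26 glycolysis and glucose uptake genes, hypoxia targets included, 10 rose and 3 fell. The oxygen-sensing hydroxylase Egln3 was at least 3.02-fold higher and the peptide gene Adm had 5.47, 4.73, 5.23 and 5.19 in KO and 7.19, 6.96, 7.53 and 7.25 in WT (-2.08 ± 0.18). Adm arrays of KO all lay below those of WT, and Ldha and Aldoa were not called (-0.16 ± 0.07 and -0.05 ± 0.08).

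S100 proteins and annexins, calcium-binding proteins, leaned to KO. Of 22 tested 14 rose and 2 fell (72.7% called, median 0.43). S100a4, a fibroblast marker, had 11.41, 11.28, 11.14 and 11.41 in KO and 9.75, 9.46, 9.73 and 9.61 in WT (1.67 ± 0.12). It lies in a run of S100 genes on chromosome 3 in which S100a1 (0.92 ± 0.08), S100a13 (0.84 ± 0.09), S100a7a (2.02 ± 0.15) and S100a8 (at least 1.93-fold) were higher too, S100a1 and S100a13 being picked by place. In the same run S100a6 was not called (-0.18 ± 0.09) but was called lower with chromosomes centred. Anxa8, on no WT array, was at least 4.48-fold higher, and Anxa6 fell (-0.61 ± 0.08) on the log2 scale.

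Cytoskeletal genes moved both ways. Of 41 SRF targets and contractile genes 10 rose and 11 fell, 4 and 4 past 2-fold, Acta2 having 14.34, 14.31, 14.38 and 14.14 in KO and 11.94, 11.69, 11.79 and 11.96 in WT. Acta2 and Tagln are also the smooth muscle markers that were higher in KO, and the part of that in this group was not tested. In the other direction Csrp2, a LIM protein of muscle and fibroblasts, had 9.33, 9.15, 8.84 and 9.28 in KO and 11.48, 11.64, 11.77 and 11.49 in WT (-2.45 ± 0.09), and the non-muscle myosin Myh10 fell (-1.36 ± 0.16) on the log2 scale. Of 24 keratins and other intermediate filaments 3 rose and 8 fell (4 fell with chromosomes centred), the progenitor filament Nes with 5.83, 5.55, 5.7 and 5.64 in KO and 7.51, 7.08, 7.09 and 7.52 in WT (-1.62 ± 0.18). For both Csrp2 and Nes the KO arrays were all the lower.

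Cues of cell guidance and contact split gene by gene. Of 14 ephrins and Eph receptors 3 rose, led by Efnb1 (1.7 ± 0.13), and 2 fell, led by Efna5 (-1.12 ± 0.09). Of 20 semaphorins, plexins and neuropilins 3 rose, with the co-receptor Nrp1 (0.99 ± 0.10), and 5 fell, with the repellent Sema3a (-1.6 ± 0.10). Robo1 and Unc5b, receptors of Slit and netrin, were on no WT array and at least 2.73-fold and 3.29-fold higher. Gap43, a protein of growing axons outside these groups, had 4.86, 4.92, 4.46 and 4.92 in KO and 8.21, 8.27, 8.2 and 8.39 in WT (-3.48 ± 0.10). Of 36 cadherins and protocadherins 4 rose and 11 fell, but 6 and 7 with chromosomes centred and 2 and 17 when scaled to the median of the detected probes. The beta-protocadherins Pcdhb14 (-1.32 ± 0.14) and Pcdhb16 (-1.44 ± 0.11) lie on chromosome 18, whose median was -0.23, and belong to a cluster of similar copies that a probe may not tell apart. Of 15 adhesion molecules of the immunoglobulin class 7 rose and 0 fell, among them Vcam1 (0.93 ± 0.09).

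Factors that set limb and body position were lower more often than higher. Of 29 Hox genes and cofactors 3 rose and 10 fell (44.8% called). Hoxd10 had 4.96, 4.82, 5.07 and 5.02 in KO and 6.85, 7.03, 7.18 and 7.07 in WT (-2.06 ± 0.10), and its neighbour Hoxd9 fell (-0.94 ± 0.10). In the Hoxb cluster the genes parted: Hoxb5 was at least 1.63-fold higher and on no WT array, Hoxb7 at least 2.13-fold lower and on no KO array, and Hoxb4 was not called (-0.23 ± 0.18). Of 47 other homeobox factors 3 rose and 15 fell, Meox1 with 5.71, 5.78, 5.62 and 5.68 in KO and 8.04, 7.9, 8.06 and 8.19 in WT (-2.35 ± 0.10) and the limb factor Shox2 with -1.72 ± 0.16. Of 32 T-box, limb and mesenchymal bHLH factors 7 rose and 14 fell, Tfap2b at least 4.07-fold lower, but 9 rose and 9 fell when arrays were scaled to the median of every probe. Gata6, of 32 Sox, Fox and Gata factors with 8 up and 10 down, was at least 3.09-fold higher and on no WT array.

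Of 207 zinc finger genes 27 rose and 67 fell (45.4% called, median -0.15), against 28 and 49 with chromosomes centred (median -0.07), but 38 rose and 36 fell when scaled to the median of every probe. Zfp521, a regulator of mesenchymal fate, was the largest rise, with 7.64, 8.19, 8.09 and 7.86 in KO and 4.79, 5.04, 4.72 and 4.41 in WT (3.21 ± 0.11), and Zfp985 fell (-1.76 ± 0.10) on the log2 scale. Among 22 nuclear receptors 5 rose and 5 fell (9 rose with chromosomes centred), Rora, of circadian and metabolic control, at least 3.81-fold higher. Of 64 G protein-coupled receptors 13 rose, such as Npy1r (1.67 ± 0.12) and Lpar4 (1.67 ± 0.13), and 14 fell, such as Lpar1 (-0.63 ± 0.08) and Lpar2 (-0.82 ± 0.13). Of 65 ion channels and pumps 13 rose and 5 fell (27.7% called), the water channel Aqp1 by 1.86, but 10 rose and 16 fell when scaled to the median of the detected probes.

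Some large changes belong to none of these groups. The proliferin gene Prl2c3 had 10.76, 10.3, 10.17 and 10.68 in KO and 7.87, 7.82, 7.85 and 7.77 in WT (2.65 ± 0.11). Its near-identical copy Prl2c4, whose probe may share the signal, also rose (2.68 ± 0.12). The repair enzyme Mgmt, which removes alkyl groups from guanine, had 4.86, 4.78, 4.66 and 4.64 in KO and 6.68, 6.79, 7.17 and 6.7 in WT (-2.1 ± 0.12), and lies on chromosome 7. The Ras-induced membrane protein Tmem158 had 5.48, 5.54, 5.72 and 5.14 in KO and 8.28, 8.24, 8.2 and 8.16 in WT (-2.75 ± 0.11). Lrig3, a membrane protein related to a receptor tyrosine kinase inhibitor, fell (-2.8 ± 0.11), the protease Klk8 (-2.47 ± 0.08) and the peptide gene Nppb (-2.01 ± 0.15) on the log2 scale. In each of these the genotypes did not overlap.

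**Figure D5:**
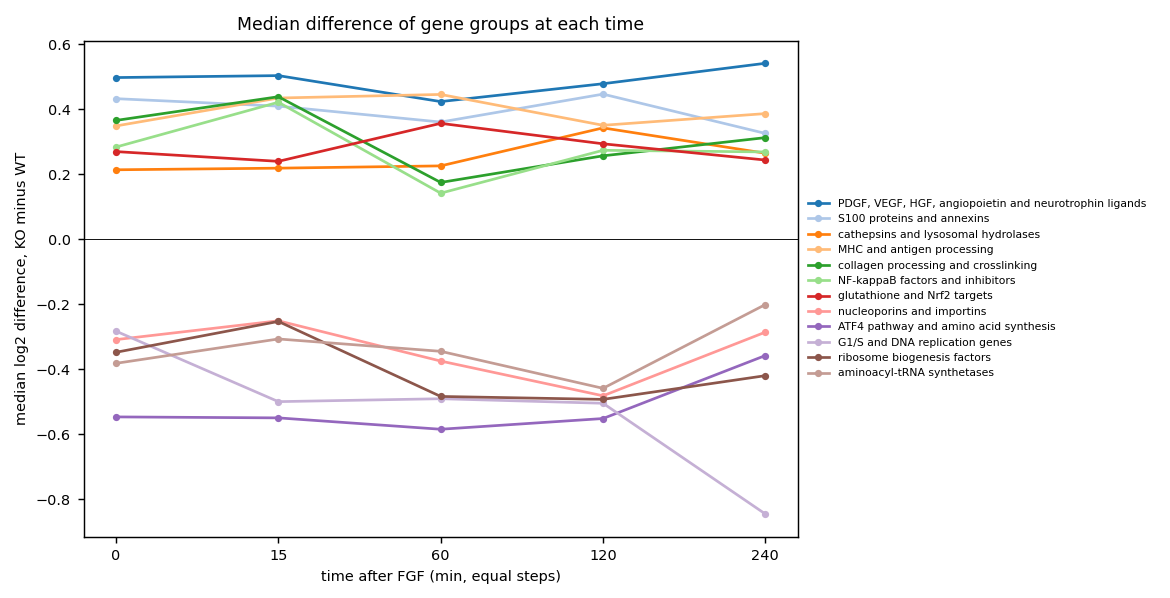
Median log2 difference KO minus WT over the tested members of 12 gene groups (y axis) at 0, 15, 60, 120 and 240 min (x axis, equal steps), the 0 min value from 4 arrays per genotype and the others from 3. Groups below 0 at 0 min, such as the aminoacyl-tRNA synthetases at -0.38, and groups above 0, such as the growth factor ligands at 0.50, keep their side of 0 at all 5 times, as do the other groups plotted.

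Most of these group shifts were seen again after FGF, in arrays that share no RNA with the 0 min ones. The cells are of the same 2 genotypes, so these values repeat the comparison and add no second deletion. The aminoacyl-tRNA synthetases had medians of -0.31, -0.35, -0.46 and -0.20 at 15, 60, 120 and 240 min, and the ribosome biogenesis factors -0.25, -0.48, -0.49 and -0.42. The replication genes stood at -0.50, -0.49, -0.51 and -0.85, further below 0 at each of these times than the -0.28 before FGF, a difference that was not tested. On the other side, the mixed growth factor ligands (PDGF, VEGF and other types) had 0.50, 0.42, 0.48 and 0.54. The genes of MHC and antigen processing had 0.44, 0.45, 0.35 and 0.39. The Toll-like receptors and sensors had 0.23, 0.14, 0.06 and 0.24, against 0.35 before FGF, and the integrins 0.25, 0.38, 0.03 and 0.26, against 0.39. The median of all genes was -0.02 at each of the later times.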

How the data were processed

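RNA of 32 samples was hybridised to Illumina mouse bead arrays, read with GenomeStudio 1.9.0 per the submitters' processing notes. The authors deposited a linear signal intensity per probe and array without normalization, a detection value as a fraction (1 minus the detection p-value), the bead standard deviation as a signal and the bead count of each probe, per the file headers. Median bead counts were 35 to 40 per probe, and the number of arrays limits the precision. The authors also deposited normalized intensities, with no word on the method in the sources used here. They are on a linear scale, as their values show, with shared quantiles, no centring and a median of 10.1 to 10.2 per array, and they served as an alternative. Another 128 columns were not used.

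Intensities were corrected with limma's normexp step from the detection p-values, raised by an offset of 16, put on the log2 scale and quantile normalized (R 4.3.3, limma 3.58.1). A probe was kept if it was detected at p under 0.05 on 3 or more of the 32 arrays (14716 of 25697), and the brightest kept probe stood for its gene, giving 10903 genes, of which 862 are probes without a symbol. Of the probes 23978 had 1 symbol, 0 several and 1719 none in the platform annotation, and 23962 were matched to RefSeq. Kept probes of 1 gene were called in opposite directions in 22 of 2666 genes, and none of those is named. limma was fitted to 10 group means over all 32 arrays, and p-values were adjusted by Benjamini-Hochberg over all genes. Where a genotype had no detected array, a fold is a lower bound against the dimmest detected signal of each array. The scripts were tested on simulated data. Replicate letters did not pair the genotypes, and p-values come from the fit without them. A and D were the closest arrays of each genotype, but differed by more than bead noise, at 1.76 times in KO and 1.70 times in WT.

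The groups and genes were chosen with earlier results of these data known, and the patterns that define some groups were corrected after values were seen. Named are the Sprouty genes, ranks 11 to 40 in each direction, in each group the 5 largest rises and falls and the 3 brightest genes not called, and cell type markers. Named rises and falls also needed KO and WT arrays without overlap and detection on all 4 arrays of a genotype. Neighbours on a chromosome and the genes whose promoters are printed were picked after seeing values. Gene order and chromosomes come from RefSeq, and no coordinate of the array's own build was used.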

Additional observations from a re-analysis of the deposited data

Results flagged for a closer look

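In 25 of 518 groups of 4 arrays looked at, 1 array lay far from the other 3 by Dixon's test. Chance flags about 1 in 20 such groups. The values are log2 intensities at 0 min. KO replicate A stood apart in Il18 at 8.58 (others 8.33 to 8.37), Lsp1 at 8.80 (others 8.78 to 8.78). KO replicate B stood apart in Ctsd at 6.04 (others 5.75 to 5.79), Lmnb1 at 9.16 (others 8.97 to 9.0). KO replicate C stood apart in Cdk2 at 10.01 (others 10.21 to 10.25), Eif3c at 9.49 (others 9.16 to 9.19), Gap43 at 4.46 (others 4.86 to 4.92), Grem1 at 10.50 (others 10.04 to 10.08), Lpin1 at 8.29 (others 7.92 to 7.97), Rrm2 at 8.35 (others 8.73 to 8.76), Tap2 at 8.54 (others 8.12 to 8.15). KO replicate D stood apart in Fas at 10.06 (others 9.99 to 10.01), Igf1r at 5.01 (others 5.44 to 5.51), Mest at 9.26 (others 9.64 to 9.69), Ndn at 8.55 (others 8.75 to 8.76), S100a6 at 12.21 (others 11.81 to 11.84). WT replicate C stood apart in Birc5 at 10.06 (others 9.88 to 9.90), Cct6a at 12.71 (others 12.55 to 12.56), Ddit3 at 9.70 (others 9.55 to 9.56), Hoxb4 at 7.53 (others 8.06 to 8.15), Lrig3 at 11.58 (others 11.97 to 12.05), Unc5b at 4.49 (others 4.73 to 4.77). WT replicate D stood apart in Hoxd9 at 7.16 (others 7.34 to 7.35), Robo1 at 4.69 (others 4.38 to 4.43), Sod2 at 10.70 (others 10.54 to 10.56). Tnfaip3, called higher in KO at 0 min, was called lower at 60 min (-0.37 on the log2 scale, KO minus WT), and Sox9, called lower at 0 min, was called higher at 240 min (0.77). The differences between the times were not tested.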

How the results depend on the processing

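Over 20 alternatives the number of genes called ran from 4246 (of 7381 genes, with detection on all 8 arrays required) to 5366 (median scaling over the kept probes), against 4995, and the direction of a call turned in 1 gene with the 8 arrays alone (4540 calls), 1 with no detection filter (5067) and 1 with detection on at least 3 of the 8 arrays (4913). Scaling moved the balance of directions. Median scaling over all probes gave 3048 higher and 1507 lower genes in KO, so that 66.9% were higher, with a median of all genes of 0.07, while median scaling over the kept probes gave 38% higher and a median of -0.11. Without 1 replicate the calls ran from 4610 to 4772. The replicate block gave 4930 calls, 2395 higher and 2535 lower. Same-lettered KO and WT arrays had deviations correlated at -0.058, 0.024, -0.189 and -0.013, so the letters do not pair them. Averaging A and D gave 4462 calls.

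Centring chromosomes takes their medians to 0 by construction: less that of all genes, chromosome 12 had -0.028, chromosome 9 -0.020, chromosome 10 0.014, chromosome 7 0.026 and chromosome 4 0.012, against 0.28, 0.19, -0.25, -0.16 and -0.12. In the other alternatives these kept their sign. It also gave Nras -0.18, called lower, against 0.00 and no call in the main comparison. Of the genes named with a value, 8 lost their call in at least 1 alternative and 6 gained one. The calls lost are those of Angpt2 and H2ac12 (median scaling over all probes), Vamp7 (mean of its probes), Map2k2 and Qars (centring), and Mmp13, lost in 6 alternatives, among them leaving out KO replicate B or WT replicate A. Col1a2 was lost with median scaling over all probes, with A and D averaged and without WT replicate D, and Lep without KO replicate B. Calls were gained by Ldha (lower, in 5 alternatives), Egfr (higher, 4), S100a6 (lower, 3), Dusp1 (lower, 2), Ccnd1 (higher, 2) and Birc5 (higher, centring). Fold changes of dim genes are limited by background.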

Other observations

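Sterol and fatty acid synthesis, p53 targets and tetraspanins were not described above. Of 31 sterol and fatty acid synthesis genes 13 were called higher in KO and 5 lower (58.1% called, median 0.15), and of 29 p53 targets 11 higher and 7 lower (62.1% called, median 0.12). Of 16 tetraspanins 5 were higher and 6 lower. With chromosomes centred the lower calls were 3 for sterol and fatty acid synthesis and 4 for p53 targets. When scaled to the median of every probe, sterol and fatty acid synthesis had 16 higher and 1 lower, p53 targets 13 and 4, and tetraspanins 5 and 3. When scaled to the median of the detected probes, these counts were 13 and 8, 9 and 8, and 5 and 8.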
